A study of Mus musculus with 45 samples.

Results

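Glutathione, the targets of the transcription factor NRF2 and the wider antioxidant defence were followed through 46 genes of the 54838 in the count table. The genes were chosen by name, as members of the glutathione, thioredoxin, iron-handling and NRF2 pathways, and all 46 had a row in the table. They were measured in 15 *PyMT*+ mouse mammary tumour cell lines, each sequenced as 3 technical repeats, which gave 45 polyA RNA libraries. *PyMT* is the polyomavirus middle T antigen, which the MMTV promoter expresses in the mammary epithelium of the mouse model, and every line compared here carries it. The 2 parental lines, YEJG and YEJH, were labelled as primary mammary tumour, 6 lines as fat-pad tumour (YEJG-FP and YEJH-FP1 to YEJH-FP5), and 7 as coming from lung (YEJG-M1, YEJG-M2 and YEJH-M1 to YEJH-M5). Of the lung lines, YEJH-M3 was labelled as lung metastases and the others as whole lung. No treatment is labelled, and the lines were grown in dishes for a day before lysis, so these are levels in cultured cells and not in tumours or lungs.

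NRF2, encoded by *Nfe2l2*, activates genes that make glutathione, regenerate thioredoxin, supply NADPH and detoxify reactive compounds. KEAP1 holds NRF2 at a low level in unstressed cells by presenting it for degradation, and NRF2 that escapes pairs with small MAF proteins on antioxidant response elements. Because this control acts on the protein, the mRNA of *Nfe2l2* need not follow NRF2 activity, and target transcripts such as *Nqo1*, *Hmox1*, *Gclm* and *Srxn1* are the usual transcript readout.

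Reads on genes ranged from 9723860 to 16943900 per library (median 13944899), and the 46 genes together took between 0.642% and 1.04% of them. The unit of comparison was the cell line, with the counts of its 3 technical repeats summed. Lines of one origin share a parent, so the p-values measure the spread between these lines. All 45 libraries were closest to the other repeats of their own line, including YEJG-M1 repeat 1, whose library name carries another line (r = 0.96 with its own line and at most 0.825 with any other). Leaving that library out moved the number of these genes called between origins from 20 to 22, and left it at 0 between lung and fat-pad lines, 5 between derived and parental lines and 11 in the interaction of site and origin. In bulk RNA, fewer cells of a type and less RNA per cell cannot be told apart. All 6 mammary luminal markers were detected, with a summed level of 113354 to 128115 normalised counts in the parental lines, 107979 to 146400 in YEJH-derived lines and 50727 to 89257 in YEJG-derived lines. The 6 basal and mesenchymal markers summed to 19447 to 63369 in YEJG-derived lines against 9870 to 19636 in YEJH-derived lines and 16566 to 23342 in the parental lines. *Vim* (vimentin) carried the high sums in YEJG-M1 and YEJG-M2, while the basal keratin *Krt14* was at 6994 in YEJG-FP and 2083 and 1842 in YEJG-M1 and YEJG-M2 against 2943 to 6875 in YEJH-derived lines. The 4 fibroblast markers summed to 76.3 to 722 in YEJG-derived and 36.3 to 85.4 in YEJH-derived lines. Leukocyte markers stayed at 18.5 to 44.2 in every line with 2 of 7 at 0 in all, and the 6 lung epithelium markers summed to 24.5 to 758.6, nearly all of it from the ciliated-cell gene *Foxj1* (22.1 to 752.5, highest in YEJH-M3), with the 3 surfactant genes at 0 in all lines.

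Of the 46 genes, 44 were expressed well enough to be tested in every comparison. *Gpx2* and *Gpx3*, which encode the gastrointestinal and the secreted glutathione peroxidases, had no read in 34 and 24 of the 45 libraries and at most 3 and 4 reads in any library, and were not tested. Per kilobase of exon, *Ftl1* (the ferritin light chain) had the highest mean level over the 15 lines with 11965 normalised counts, ahead of *Txn1* (thioredoxin) with 3066, *Gpx1* (cytosolic glutathione peroxidase) with 2927, *Fth1* (the ferritin heavy chain) with 2437 and *Prdx1* (a cytosolic peroxiredoxin) with 2355. The regulators hardly varied. *Nfe2l2* ranged from 1880.1 normalised counts in YEJG to 2240.3 in YEJG-M1, and the derived lines had a lowest, median and highest level of 2074, 2174 and 2240.3. *Keap1* ranged from 996 in YEJH-M3 to 1241 in YEJG. Neither passed the test in any comparison, and the log2 fold changes of *Nfe2l2* between the groups of lines lay between -0.01 and 0.07. The heatmap of levels shows the 44 genes against the median line of each.

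**Figure D1:**
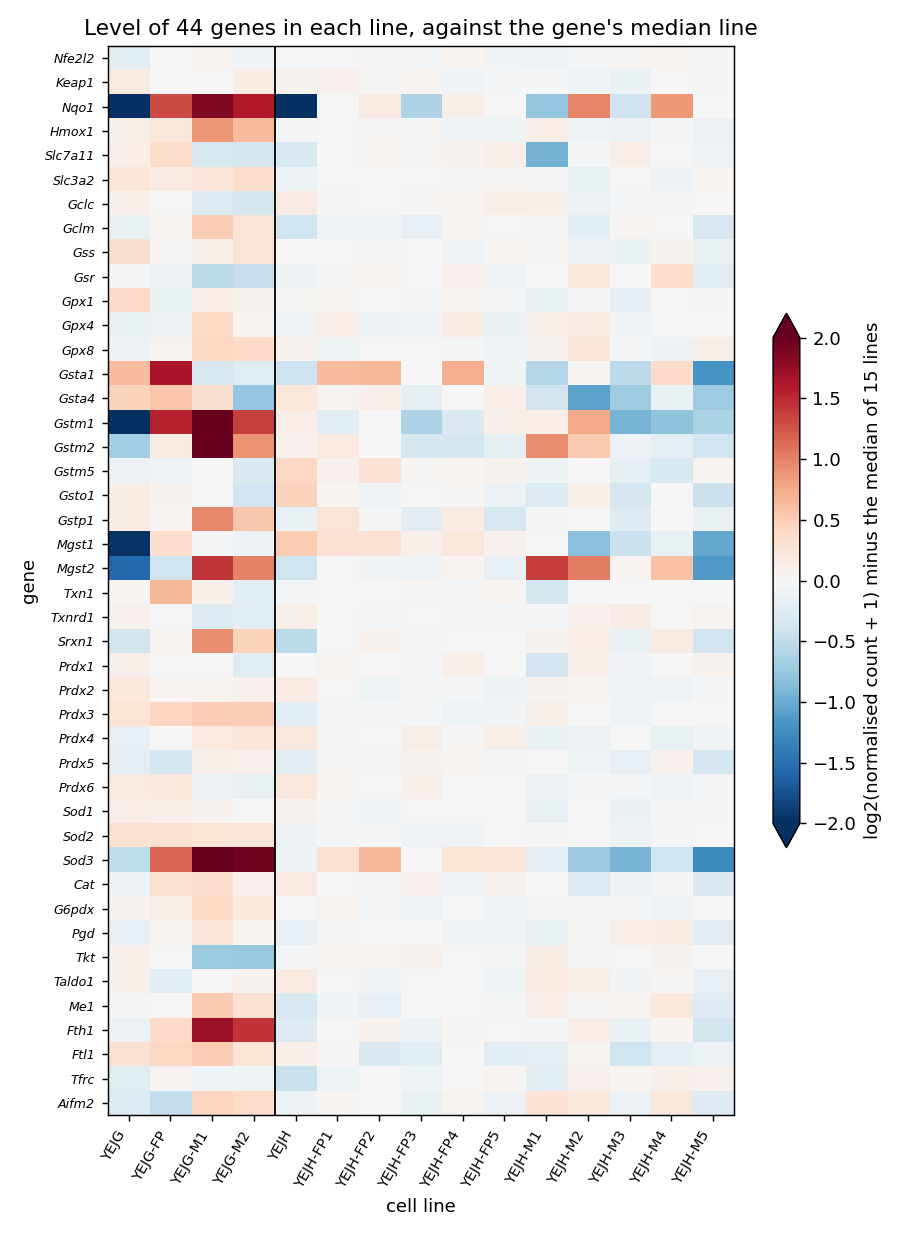
Level of 44 genes (rows) in the 15 lines (columns), as the difference of log2(normalised count + 1) from the median of the 15 lines for that gene. The vertical line separates YEJG from YEJH lines. *Nqo1* is far below its median in the parental lines only, and the YEJG lung lines stand out for *Fth1* and *Sod3*, and all YEJG-derived lines for *Gstm1*.

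The parental lines were compared with the 13 derived lines, with origin in the model, to ask how lines recovered from fat pad or lung differ from the tumour lines they were named after. *Nqo1*, which encodes an NADPH-dependent quinone oxidoreductase and is a classical NRF2 target, was almost absent from both parental lines and abundant in every derived line. The parental YEJG libraries held 4, 5 and 11 raw *Nqo1* reads (4.73, 5.74 and 11.5 normalised counts), and the parental YEJH libraries 2, 4 and 12 (2.55, 4.35 and 10.2). The derived lines had a lowest, median and highest level of 346 (YEJH-M1), 644 and 2150.0 (YEJG-M1), and no derived library was under 296. The groups did not come near each other, and the fitted log2 fold change was 7.37 ± 0.69 (SE; edgeR quasi-likelihood test, adjusted p = 9.25e-05), about 165-fold. Other genes also separated these groups: *Krt14* was at 19296 and 10523 in parental YEJG and YEJH and at most at 6994 in a derived line, and the mesenchymal *Zeb1* at 28.95 and 56.9 against at least 72.0. Their part in the changes between derived and parental lines was not tested. Among the 16361 genes tested *Nqo1* ranked 6th by p and 19th by the size of its change. The coefficient of variation among the 3 repeats of a line had a median of 17.6% over the lines for this gene and reached 70.04%. Its lowest library was repeat 1 in 11 of the 15 lines and its highest repeat 3 in 11. Each origin has a single parental line, and with the YEJG lines alone the log2 fold change was 7.90 with an adjusted p of 0.10. Over all 32 alternatives it lay between 6.70 and 7.97.

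**Figure D2:**
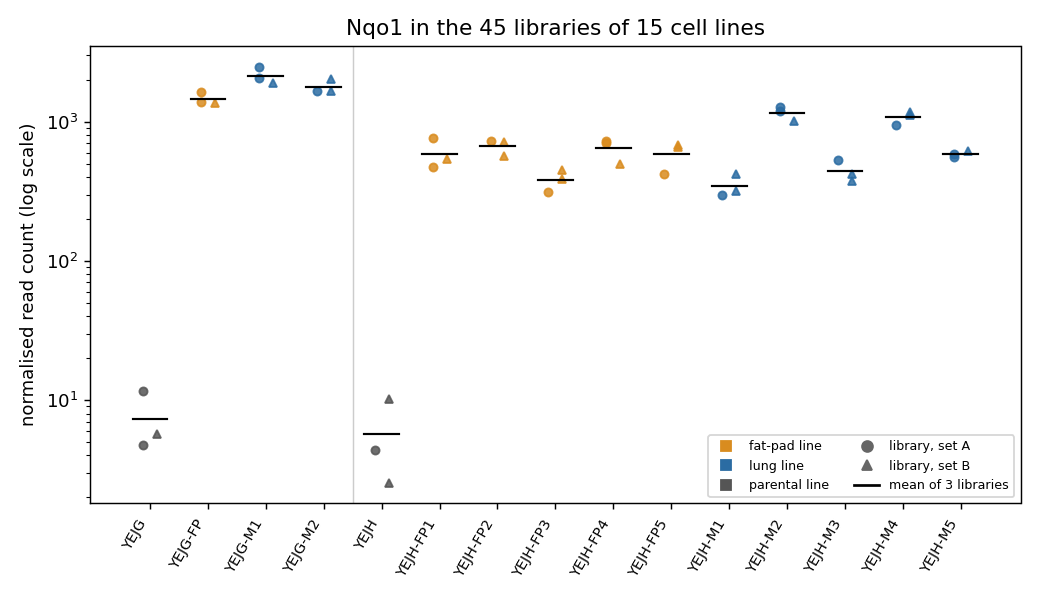
*Nqo1* normalised read count on a log scale in each of the 45 libraries, by line, with the site shown by colour and the line mean marked. The 6 parental libraries lie between 2.55 and 11.5, and the 39 derived libraries between 296 and 2488.

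*Nqo1* lies on chromosome 8 at 108113835 to 108129934, minus strand (GRCm39). Of the genes within 200 kb of it, 7 were tested in the same comparison and none passed, with log2 fold changes between 0.03 and 0.34. The nearest, *Nfat5*, which encodes an osmotic stress transcription factor, gave 0.34 ± 0.21 (SE, adjusted p = 0.35).

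Besides *Nqo1*, 3 of the 44 genes were called higher in derived lines and 1 lower, a total of 4 higher and 1 lower where 3.47% and 4.11% of all tested genes were called higher and lower. *Srxn1* (sulfiredoxin, which reactivates over-oxidised peroxiredoxins and is another NRF2 target) was at 694 in YEJG and 614 in YEJH against a lowest, median and highest derived level of 684, 927 and 1705. It rose by a log2 fold change of 0.70 ± 0.18 (adjusted p = 0.033), with the lowest derived line, YEJH-M5, below parental YEJG. *Tfrc* (the transferrin receptor, which imports iron) was at 8825 and 7641 in the parental lines and at 9007, 10422 and 11129 in the derived lines, which did not overlap them (0.30 ± 0.07, adjusted p = 0.018). The parental libraries of this gene disagreed, at 7711, 9337 and 9425 in YEJG and 5599, 7859 and 9465 in YEJH, so that single parental libraries lay inside the range of the derived lines. Without parental YEJH the log2 fold change was 0.19 and was not called (adjusted p = 0.22), nor was it without parental YEJG (0.40, adjusted p = 0.062). *Prdx3* (the mitochondrial peroxiredoxin) was at 1887 in YEJG and 1356 in YEJH; each derived line lay above its own parent, at 2102 to 2231 and at 1481 to 1709.8 (0.20 ± 0.05, adjusted p = 0.032). *Prdx2* (a cytosolic peroxiredoxin) fell from 3564 and 3446 to a derived range of 2854 to 3242 with a median of 3031 (-0.17 ± 0.05, adjusted p = 0.038). Levels did not overlap between parental and derived lines for 4 genes, *Nqo1* and *Tfrc* higher and *Gsto1* and *Prdx2* lower, against 8.07% of all genes tested. *Gsto1* (an omega-class glutathione transferase) had an adjusted p of 0.084. Other members did not pass the test, some with estimates as large as that of *Srxn1*: log2 fold changes were 1.37 ± 0.62 for *Mgst2* (a microsomal transferase, adjusted p = 0.19), 0.94 ± 0.76 for *Gstm1* (a mu-class transferase, adjusted p = 0.51) and 0.69 ± 0.28 for *Fth1* (adjusted p = 0.14). *Hmox1* (haem oxygenase 1) gave 0.22 ± 0.13 (adjusted p = 0.34). *Gclm* (the modifier subunit of the enzyme that starts glutathione synthesis) gave 0.37 ± 0.11 (adjusted p = 0.059), and it passed in DESeq2 (adjusted p = 0.015). *Gclc* and *Prdx6* were called lower in DESeq2 as well (adjusted p = 0.042 and 0.049). In limma on separate libraries *Gclm*, *Mgst2*, *Gstm1*, *Sod3*, *Me1* and *Fth1* also passed as higher, with *Gstm1* at 2.79. *Gclc*, *Gsto1*, *Txnrd1* and *Prdx6* passed there as lower. Leaving out parental YEJH leaves 1 parental line. The log2 fold changes were then 4.76 for *Gstm1*, 2.32 for *Sod3* (0.83 with both parental lines), 2.14 for *Mgst1* (0.25), 1.38 for *Fth1* and -0.37 for *Gpx1* (-0.18). The median log2 fold change was 0.07 over the 44 genes and 0.01 over all genes tested. The count depended on single lines, with 1 of the 44 called without parental YEJG (*Nqo1*) and 12 without YEJG-FP.

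The start sites of the 46 genes were then read for the letters of an antioxidant response element. The windows from 250 bases before to 50 after each gene start (RefSeq, GRCm38.p6) were searched on both strands for the core TGACNNNGC, which can contain an AP-1 site (TGACTCA). Of the 46 genes, 40 had a window and 11 of these (27.5%) held the core in at least 1 window, against 14% of 27025 genes. Counted by window and not by gene, the core was in 12.4% of 32851 windows of the same length. That share is not given for the 51 windows of the 40 genes. The 11 genes were *Nfe2l2*, *Gclm*, *Gstm5*, *Mgst1*, *Txnrd1*, *Srxn1*, *Prdx1*, *Sod1*, *G6pdx*, *Pgd* and *Me1*, and the matches in *Prdx1* and *Me1* contained TGACTCA. *Hmox1*, *Gclc*, *Gsr*, *Gsta4*, *Prdx6* and *Sod3* had no window. The 4 windows below are shown because *Nqo1* and *Srxn1* were called higher in derived lines, while *Gclm* and *Txnrd1* were called in opposite directions between origins when all derived lines were used. They lie at chr8:107403156-107403455 on the minus strand for *Nqo1*, and on the plus strand at chr2:152105274-152105573 for *Srxn1*, chr3:122245307-122245606 for *Gclm* and chr10:82858956-82859255 for 1 of the *Txnrd1* starts. Capitals mark the core, here always on the minus strand and so printed as its reverse complement.
Nqo1: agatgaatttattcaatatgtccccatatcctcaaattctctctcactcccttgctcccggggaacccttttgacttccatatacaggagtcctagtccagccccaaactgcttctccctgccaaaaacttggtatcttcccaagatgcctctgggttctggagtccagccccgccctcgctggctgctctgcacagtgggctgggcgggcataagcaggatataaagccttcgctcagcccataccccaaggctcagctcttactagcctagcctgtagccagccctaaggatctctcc
Srxn1: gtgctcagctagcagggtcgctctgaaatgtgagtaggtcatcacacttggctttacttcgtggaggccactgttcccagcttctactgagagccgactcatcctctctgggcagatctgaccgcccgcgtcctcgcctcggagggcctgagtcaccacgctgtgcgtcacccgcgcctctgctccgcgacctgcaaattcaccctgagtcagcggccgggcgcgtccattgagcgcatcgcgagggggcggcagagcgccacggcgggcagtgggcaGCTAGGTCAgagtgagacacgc
Gclm: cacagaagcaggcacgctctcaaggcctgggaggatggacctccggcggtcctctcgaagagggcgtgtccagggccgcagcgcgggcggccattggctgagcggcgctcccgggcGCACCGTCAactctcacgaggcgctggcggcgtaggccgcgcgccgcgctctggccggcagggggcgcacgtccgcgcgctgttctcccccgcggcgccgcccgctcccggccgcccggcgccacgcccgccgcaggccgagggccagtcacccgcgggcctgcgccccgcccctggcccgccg
Txnrd1: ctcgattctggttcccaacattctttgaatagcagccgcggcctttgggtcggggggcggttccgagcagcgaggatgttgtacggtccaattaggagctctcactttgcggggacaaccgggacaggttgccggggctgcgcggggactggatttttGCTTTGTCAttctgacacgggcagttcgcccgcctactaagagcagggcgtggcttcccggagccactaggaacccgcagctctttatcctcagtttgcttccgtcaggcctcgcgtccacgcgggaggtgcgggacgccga
The match reads TGACCTAGC in *Srxn1*, TGACGGTGC in *Gclm* and TGACAAAGC in *Txnrd1*. The *Nqo1* window holds no match, which says only that these letters are not in these 300 bases.

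Next, lines of YEJG origin were compared with lines of YEJH origin, with site in the model, since every condition was split between these origins. Of the 44 genes, 16 were called higher and 4 lower in the 3 YEJG-derived lines than in the 10 YEJH-derived lines, where 19.2% and 21.6% of all genes tested were called higher and lower. The median log2 fold change was 0.20 over the 44 genes and 0.00 over all genes tested, and 33 of the 44 lay above 0. The genes higher in YEJG-derived lines included both oxidoreductase and haem targets, 3 of 9 glutathione transferases, 3 of 4 superoxide dismutases and catalase, and both ferritin subunits. The plot of log2 fold changes by comparison gives all 44 genes. The luminal, basal and fibroblast marker levels given above differed between the same groups of lines, and their part in these differences was not tested.

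**Figure D3:**
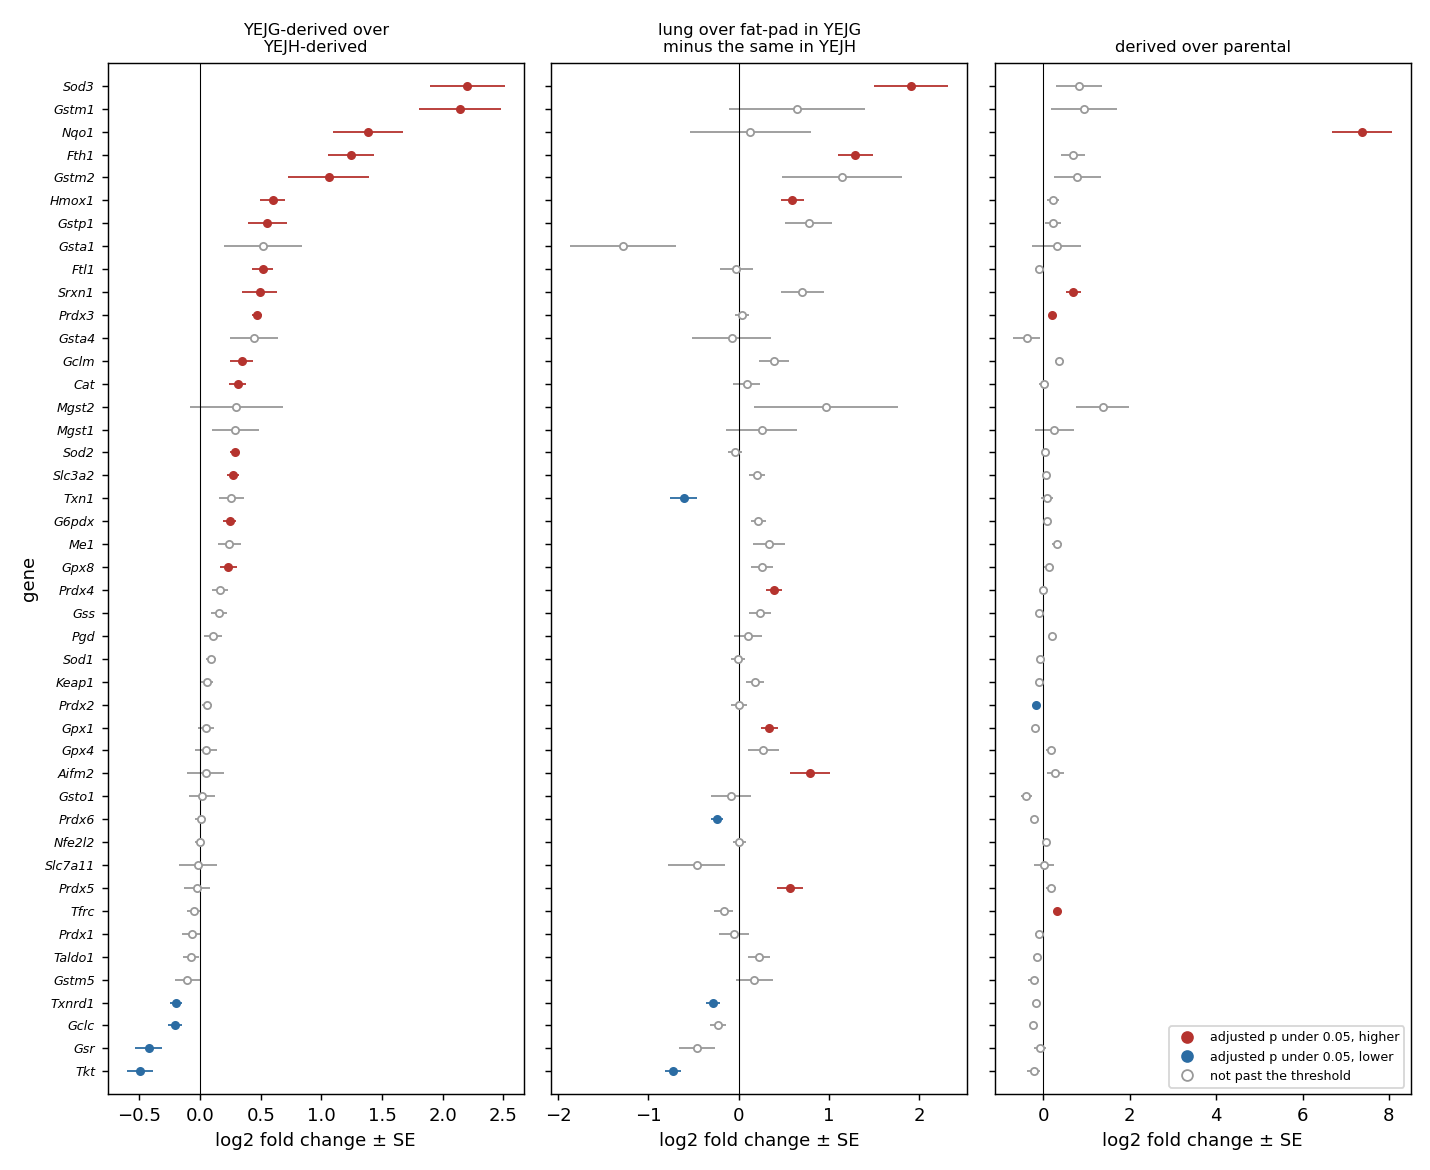
Log2 fold change ± SE of the 44 tested genes between origins, in the interaction of site and origin, and between derived and parental lines. Each row is 1 gene, and genes past an adjusted p of 0.05 are filled. *Nqo1* at 7.37 dominates the comparison of derived with parental lines. Among the called genes, 16 lie to the right and 4 to the left between origins. In the interaction, 7 lie to the right and 4 to the left. Lung against fat pad is not drawn.

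The largest of these differences was that of *Sod3*, the extracellular superoxide dismutase. YEJG-FP, YEJG-M1 and YEJG-M2 were at 293, 601 and 494 normalised counts, and the YEJH-derived lines had a lowest, median and highest level of 52.8, 121 and 203. The groups did not overlap, with a log2 fold change of 2.21 ± 0.31 (adjusted p = 1.62e-04). *Gstm1*, a mu-class glutathione transferase, was at 96.3, 219 and 85.5 in the YEJG-derived lines and at 16.6, 27.1 and 55.5 (lowest, median and highest) in the YEJH-derived lines, again without overlap (2.15 ± 0.34, adjusted p = 3.57e-04). Its neighbour *Gstm2*, which lies with *Gstm1* and *Gstm5* in a 122.2 kb stretch of chromosome 3, was at 18.1, 74.1 and 31.0 against 12.2, 14.5 and 31.9 and overlapped (1.06 ± 0.33, adjusted p = 0.022). At 90% identity or more over at least 300 bases, no coding copy was found for *Gstm1*, *Gstm2* or *Gstm5*. *Gstm1* and *Gstm2* have 1 processed copy each, which may share their reads. *Nqo1* was at 1459, 2150.0 and 1786 in the YEJG-derived lines and at 346, 590.1 and 1159 in the YEJH-derived lines, so that the gene almost absent from both parents reached different levels by origin (1.38 ± 0.29, adjusted p = 0.0023).

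The iron-storage genes *Fth1* and *Ftl1* were also higher. *Fth1* gave 8864, 22563 and 18533 in the YEJG-derived lines against 5293, 6818 and 7463 in the YEJH-derived lines (1.25 ± 0.19, adjusted p = 2.92e-04). *Ftl1* gave 21014, 22317 and 18942 against 11969, 13904 and 16276 (0.52 ± 0.09, adjusted p = 4.91e-04), and it has 6 processed copies in the genome that can share its reads. Among the other targets, *Hmox1* was at 512, 815 and 682 against 406, 427 and 482 (0.60 ± 0.10, adjusted p = 5.44e-04). *Srxn1* was at 927, 1705 and 1235 against 684, 896 and 1009, with overlap at YEJG-FP (0.49 ± 0.15, adjusted p = 0.018). *Gclm* was at 698, 957 and 804 against 536, 654 and 690 (0.34 ± 0.10, adjusted p = 0.013).

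Differences in the same direction were also found for *Gstp1* (the pi-class transferase, 0.55 ± 0.16, adjusted p = 0.015), *Prdx3* (0.47 ± 0.04, adjusted p = 5.93e-06) and *Cat* (catalase, 0.31 ± 0.07, adjusted p = 0.0048). *Sod2* (the mitochondrial superoxide dismutase), *Slc3a2* (a partner subunit of the cystine transporter), *G6pdx* (the first enzyme of the pentose phosphate pathway) and *Gpx8* (a glutathione peroxidase of the endoplasmic reticulum) completed the 16, with log2 fold changes of 0.29, 0.27, 0.24 and 0.23. *Slc7a11*, which imports cystine, was not called. It stood at 318, 197 and 194 in YEJG-FP, YEJG-M1 and YEJG-M2, within or above the YEJH-derived range of 127 to 269.

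The 4 genes lower in YEJG-derived lines belong to glutathione synthesis and recycling, thioredoxin reduction and the pentose phosphate pathway. *Tkt* (transketolase, of the non-oxidative pentose phosphate pathway) was at 6842, 4100.0 and 4068 in YEJG-FP, YEJG-M1 and YEJG-M2 and at 6693, 6983 and 7630.5 in the YEJH-derived lines, so that the lung lines alone lay apart (-0.50 ± 0.11, adjusted p = 0.0030). *Gsr* (glutathione reductase) was at 3407, 2521 and 2639 against 3148, 3687 and 4702 (-0.42 ± 0.11, adjusted p = 0.0098). *Gclc* (the catalytic subunit of the enzyme that *Gclm* modifies) was at 1238, 1022 and 978 against 1138, 1246 and 1342 (-0.21 ± 0.05, adjusted p = 0.0088). *Txnrd1* (cytosolic thioredoxin reductase) gave a log2 fold change of -0.20 ± 0.05 (adjusted p = 0.0072). With the fat-pad lines alone, 1 of YEJG and 5 of YEJH origin, 10 of the 20 genes were no longer called, in a fit that assumes YEJG-FP to vary as the other lines do. The log2 fold changes there were -0.05 for *Gclc*, 0.10 for *Gclm*, 0.03 for *Srxn1*, 0.05 for *Gstp1*, -0.01 for *Txnrd1* and -0.05 for *Tkt*. With the lung lines alone, all 20 were called.

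Line levels did not overlap between origins for 12 of the 44 genes, all higher in YEJG-derived lines, against 24.2% of all genes tested. Among lung lines alone, 2 of YEJG and 5 of YEJH origin, they did not overlap for 20 genes higher and 5 lower (*Gclc*, *Gsr*, *Txnrd1*, *Prdx6* and *Tkt*) against 48.3% of all genes. Leaving out YEJG-M1 reduced the called genes from 20 to 12, and *Gclc*, *Gclm*, *Gsr*, *Gpx8*, *Gstm2*, *Gstp1*, *Txnrd1* and *Srxn1* were no longer called. Of the 16 genes, 11 had a higher and 5 a lower mean in parental YEJG than in parental YEJH. There 4 were higher in parental YEJG without overlap of its 3 libraries with those of parental YEJH (*Slc3a2*, *Gclm*, *Prdx3* and *Sod2*), 3 were lower (*Gstm1*, *Gstm2* and *Cat*) and 9 overlapped, where the libraries of the parental lines did not overlap for 30.3% of all genes. *Gstm1* was at 4.73 in parental YEJG and 35.7 in parental YEJH, the reverse of the derived lines. The parental lines are 1 line per origin, so these are comparisons of technical repeats.

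The difference between lung and fat-pad lines was then compared between origins by an interaction term. Of the 44 genes, 7 had a more positive and 4 a more negative lung-against-fat-pad difference in YEJG than in YEJH, where 6.72% and 6.58% of all genes tested were called in these directions. *Fth1* rose from 8864 in YEJG-FP to 22563 in YEJG-M1 and 18533 in YEJG-M2, while the YEJH lines averaged 6818 from fat pad and 6522 from lung. The interaction was 1.29 ± 0.19 on the log2 scale (adjusted p = 0.0015). For *Sod3* the directions were opposite, with 293 in YEJG-FP against 601 and 494 in the YEJG lung lines and YEJH means of 160.3 from fat pad and 81.7 from lung (1.91 ± 0.41, adjusted p = 0.010). In YEJH the fat-pad lines lay between 129 and 203 and the lung lines between 52.8 and 113, without overlap. The *Sod3* libraries of YEJH-M3 disagreed among themselves, at 25.4, 144 and 32.6.

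*Tkt* had the smallest adjusted p, with levels going from 6842 in YEJG-FP to 4100.0 and 4068 in the YEJG lung lines, with YEJH means of 7005 and 7042 (-0.73 ± 0.08, adjusted p = 3.40e-04). *Txn1* was at 10471 in YEJG-FP, the highest of all lines, and at 7105 and 5722 in the YEJG lung lines, with YEJH means of 6646 and 6292 (-0.61 ± 0.15, adjusted p = 0.016). *Aifm2*, which encodes the ferroptosis suppressor FSP1, was at 239 in YEJG-FP and at 453 and 433 in the YEJG lung lines, against YEJH means of 328 and 356 (0.79 ± 0.22, adjusted p = 0.032). *Hmox1* (0.59 ± 0.13, adjusted p = 0.0098), *Prdx5* (0.57 ± 0.14, adjusted p = 0.020), *Prdx4* (0.39 ± 0.08, adjusted p = 0.0099) and *Gpx1* (0.34 ± 0.09, adjusted p = 0.031) were the other genes with a more positive difference in YEJG. *Txnrd1* (-0.28 ± 0.08, adjusted p = 0.026) and *Prdx6* (-0.24 ± 0.07, adjusted p = 0.035) were the others with a more negative one. Cell type markers moved with the YEJG lines too. From YEJG-FP to YEJG-M1 and YEJG-M2, *Vim* (vimentin, a mesenchymal marker) went from 11025 to 58777 and 40689 and *Pdgfra* (a fibroblast marker) from 43.3 to 595 and 127, while the luminal *Epcam* went from 4859 to 1795 and 2792 and *Krt7* from 31699 to 7853 and 12503. Their part in these differences was not tested. All of the interactions rest on a single YEJG fat-pad line, so the difference cannot be told apart from what is particular to YEJG-FP. Without YEJG-M1, 7 of the 11 genes were still called.

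**Figure D4:**
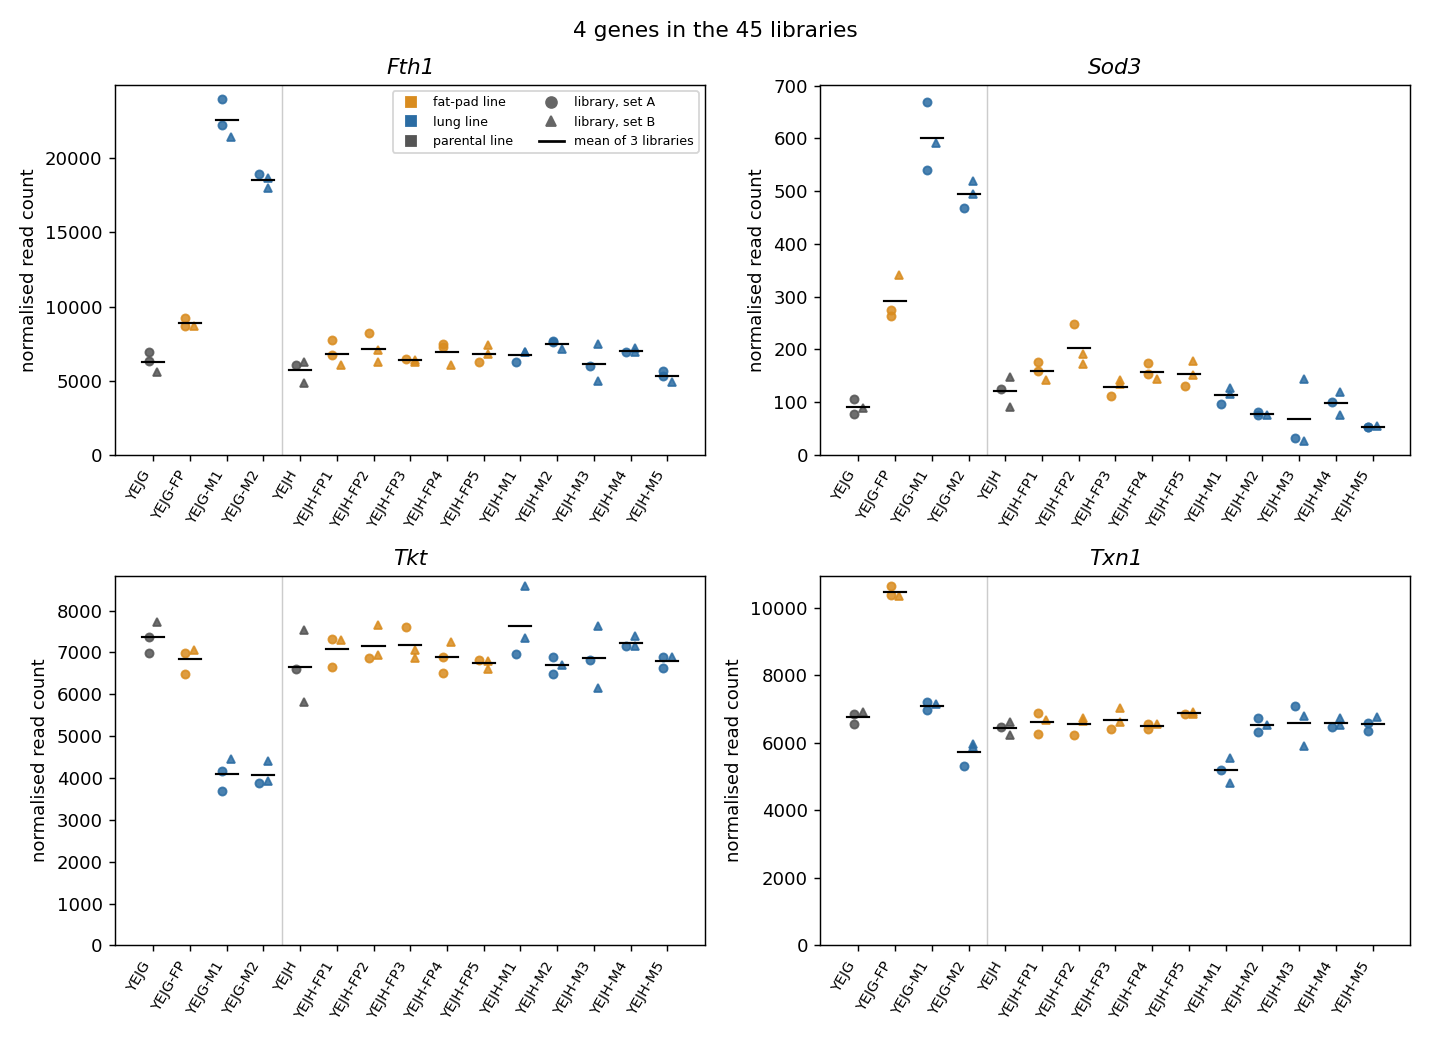
Normalised read counts of *Fth1*, *Sod3*, *Tkt* and *Txn1* in the 45 libraries by line, with the line mean marked, on linear axes. The YEJG lung lines lie above all other lines for *Fth1* and *Sod3* and below them for *Tkt*, and YEJG-FP lies above all others for *Txn1*.

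The 7 lung lines were compared with the 6 fat-pad lines without a covariate. No gene of the 44 passed an adjusted p of 0.05 in edgeR, as for all 15056 genes tested (0% called), and DESeq2 called none of the 44 either. With libraries kept apart in limma and both library set and origin in the model, 7 of the 44 and 488 of all genes passed. The 7 were *Aifm2* and *Gpx8*, higher, and *Gsta1*, *Gsta4*, *Mgst1*, *Prdx6* and *Txn1*, lower in lung lines. That model treats the line as a random effect over its technical repeats. With counts summed per line and origin as covariate, edgeR called 0 of the 44. In the fit without a covariate, 10 of 44 were at an unadjusted p under 0.05 (4 higher and 6 lower), or 22.7%, where 5.15% of all genes were. The 5 smallest p-values belonged to *Prdx6*, *Gsta1*, *Mgst1*, *Mgst2* and *Gsta4*, all with an adjusted p of 0.91. *Prdx6* (a peroxiredoxin that uses glutathione) was at a lowest, median and highest level of 7693, 7844 and 8886 in fat-pad lines and at 6924, 7233 and 7532 in lung lines, without overlap (-0.15 ± 0.04). *Mgst1* (a microsomal transferase) was at 49.98, 56.5 and 59.9 in fat-pad lines and at 22.6, 42.4 and 47.0 in lung lines, also without overlap (-0.56 ± 0.17). *Gsta1* and *Gsta4*, alpha-class transferases, gave -1.06 ± 0.31 and -0.56 ± 0.20 with overlapping lines. *Mgst2* gave 0.93 ± 0.32, at 63.0, 78.6 and 86.2 in fat-pad lines and 37.3, 167 and 225 in lung lines. Non-overlapping levels were found for 2 of the 44 genes, against 0.252% of all genes. Within YEJH lines they were found for 3 genes, *Mgst1*, *Prdx6* and *Sod3*, all lower in lung lines, against 1.97% of all genes.

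The YEJH lung lines differed more among themselves than did the YEJH fat-pad lines. The SD of the log2 level was larger among the 5 lung lines for 39 of the 44 genes, as for 78.8% of all genes tested, and the median ratio of the SDs was 2.40 over the 44 genes and 1.67 over all genes. *Mgst2* was at 218, 170.0, 85.2, 125 and 37.3 in YEJH-M1 to YEJH-M5, whereas its fat-pad range was 74.2 to 86.2, an SD of 0.98 against 0.08. For *Slc7a11* the larger SD (0.43 against 0.05) came with YEJH-M1, at 127, while the other lung lines were between 233 and 269. *Nqo1* was at 346, 1159, 441, 1081 and 589 in the lung lines, an SD of 0.77 against 0.32. *Srxn1* had an SD of 0.24 against 0.04.

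Genes of the same pathways that were not among the 46 were counted from a list of 97. Between origins, 24 of the 83 tested were higher in YEJG-derived lines and 22 lower, where 19.2% and 21.6% of all genes were. The metallothioneins *Mt2* (2.58 ± 0.58, adjusted p = 0.0033) and *Mt1* (1.76 ± 0.28, adjusted p = 4.20e-04), the aldehyde dehydrogenase *Aldh3a1* (2.45 ± 0.41, adjusted p = 5.52e-04) and the theta-class transferase *Gstt1* (1.56 ± 0.28, adjusted p = 9.07e-04) had the largest increases. The lipoxygenase *Alox12* (-4.53 ± 0.60, adjusted p = 9.95e-05), the NRF2 relative *Nfe2l3* (-1.80 ± 0.30, adjusted p = 5.20e-04), the thioredoxin inhibitor *Txnip* (-1.24 ± 0.16, adjusted p = 7.21e-05) and the NADPH-producing *Idh1* (-0.96 ± 0.12, adjusted p = 6.22e-05) had the largest decreases. The DNA-binding partners of NRF2 were lower in YEJG-derived lines, with log2 fold changes of -0.85 for *Mafg*, -0.38 for *Maff* and -0.30 for *Mafk*, as was their repressive partner *Bach1* at -0.63, and all 4 passed the test. They were looked up after these values had been seen.

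Between derived and parental lines, 3 of 85 other genes were higher, a share near the 3.47% of all genes called higher (*Gstt1* 2.50 ± 0.56, the glutathione-cycle enzyme *Oplah* 1.46 ± 0.31 and *Ugdh* 0.50 ± 0.14) and only *Bach1* was lower (-0.45 ± 0.11, adjusted p = 0.021), where 4.11% of all genes were. In the interaction, 13 of 87 were more positive in YEJG, led by *Mt2* at 3.36 and *Mt1* at 1.98, where 6.72% of all genes were, and 6 were more negative, against 6.58% of all genes, led by the methionine sulfoxide reductase *Msrb2* at -1.44 and by *Osgin1* at -1.01. None of 81 was called between lung and fat-pad lines.

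The library names carry 2 prefixes, taken here as library sets A (22 libraries) and B (23), and every line has libraries in both. Between the sets, with the line in the model, 7 of the 44 genes were higher in set A and none was lower in edgeR (1 lower at an unadjusted p under 0.05; *Gclc* was called lower in DESeq2 and with RLE normalisation), where 11.1% and 4.24% of all genes were called higher and lower. *Gpx4* (the phospholipid glutathione peroxidase) averaged 2618 in set A and 1709.7 in set B, *Ftl1* 19704 and 12544, *Gstp1* 949 and 634, and *Gsta1* 18.3 and 9.42. The log2 fold changes were 0.66 ± 0.04, 0.63 ± 0.03, 0.57 ± 0.04 and 0.86 ± 0.14, and *Prdx1*, *Sod1* and *Prdx2* followed with 0.25, 0.19 and 0.14. Of these genes, *Gpx4*, *Gstp1*, *Prdx1*, *Prdx2*, *Sod1* and *Ftl1* have processed copies elsewhere in the genome and *Gsta1* has near-identical coding relatives. Among genes not called between sets, *Txn1*, *Fth1*, *Taldo1*, *Me1*, *Gstm1* and *Gstm2* have processed copies too, and *Prdx6* and *G6pdx* have coding relatives. Reads of a low-quality class were tallied only in set A, at 822828 to 1372504 per library, and 0 in set B. The part of the copies and of the tally in the difference between sets was not tested.

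**Figure D5:**
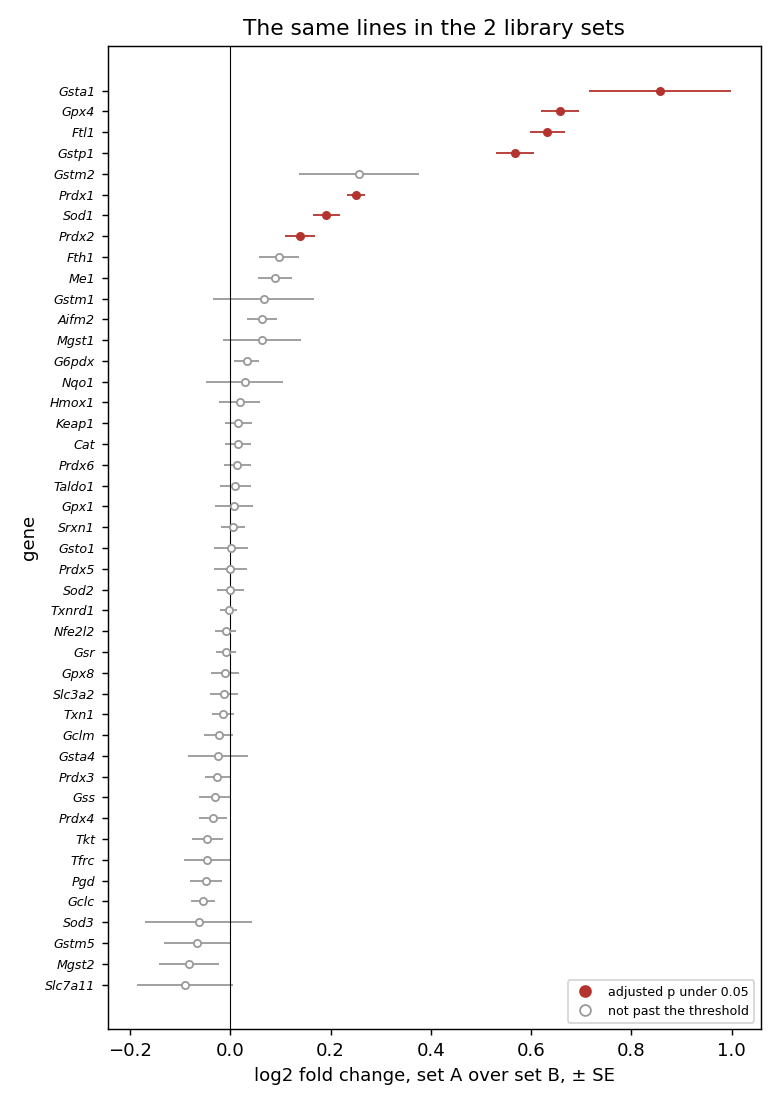
Log2 fold change ± SE between library sets A and B for the 44 tested genes, with the line in the model, and genes past an adjusted p of 0.05 filled. The 7 called genes lie between 0.14 and 0.86, and *Nqo1*, *Sod3*, *Tkt* and *Txn1* lie near 0.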

How the data were processed

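PolyA RNA of 15 *PyMT*+ cell lines was sequenced by the study as 45 libraries (TruSeq RNA Library Prep kit v2, NextSeq500), and no strand was marked. The authors deposited raw read counts per gene; their processing notes name FastQC, HISAT2, SAMtools 1.2 and HTSeq, with a human build (GRCh38), although the gene IDs are mouse Ensembl IDs. Rows of reads on no gene (31.6% to 43.3% of a library) were left out. Of 54838 genes, 50764 (92.6%) were named from GENCODE vM39 (GRCm39). The 46 genes and all lists were chosen with earlier results of these data known.

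Groups came from the labels. Counts of the 3 technical repeats were summed per line and tested with the edgeR 4.0.16 quasi-likelihood test in R 4.3.3 (TMM factors, filterByExpr, robust), with p-values adjusted by Benjamini-Hochberg over all genes tested and a threshold of 0.05. SE is that of the log2 fold change. Levels are TMM-normalised counts scaled to the mean library and averaged per line. Counting error is small except for genes of few reads. Named with full statistics were genes past the threshold, up to 12 higher and 12 lower, or the 5 smallest p-values if none passed. Between derived and parental lines, some genes that did not pass were named with full statistics as well. Levels are given for any of the 46. Alternatives were DESeq2 1.42.0, limma 3.58.1 on libraries kept apart, other normalisation and filters, library sets, covariates, subsets and leaving out repeats or lines. Scripts were tested on simulated counts.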

Additional observations from a re-analysis of the deposited data

Results flagged for a closer look

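Lines were compared with the others of their group for each of the 44 tested genes, and a line was singled out where its gap to the nearest other line was a larger share of the group's range than chance gives in about 1 in 20 groups. Among the 6 fat-pad lines this held for 13 genes (29.5%, against 21.1% of all 15056 genes tested), always with YEJG-FP, the only one of YEJG origin, at the end. YEJG-FP was highest for *Nqo1* (1459 normalised counts), *Hmox1* (512), *Slc7a11* (318), *Slc3a2* (1877), *Gsta1* (37.4), *Gsta4* (947), *Gstm1* (96.3), *Txn1* (10471), *Prdx3* (2102), *Sod2* (975), *Cat* (948.5) and *Fth1* (8864), and lowest for *Prdx5* (1045). *Gsta1* differed between library sets: YEJG-FP was at 44.98 in set A, with YEJH-FP2 next at 30.25, and at 22.3 in set B, with YEJH-FP2 next at 12.8. What is particular to YEJG-FP and what belongs to its origin cannot be told apart among fat-pad lines. *Prdx3* and *Sod2* were high in every YEJG line, and *Txn1* was high in YEJG-FP alone. For the other groups the share of the 44 genes did not exceed that of all genes: 6.82% against 7.91% among lung lines, 2.27% against 5.17% among YEJH fat-pad lines, 6.82% against 8.22% among YEJH lung lines and 11.4% against 15.1% among YEJH-derived lines. These lines are given as values. Among the 7 lung lines, YEJG-M1 stood apart at the top for *Gstm1* (219) and *Gstm2* (74.1). The mean of its libraries was also the highest for *Gpx4* (2788), but this gene differed between library sets: in set A alone YEJG-M1 was at 3162 and the next lung line, YEJH-M4, at 2897, and in set B YEJG-M1 was at 2039, below YEJH-M1 at 2049.

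Within YEJH, the line YEJH-M1 stood apart among the 5 lung lines for low *Slc7a11* (127), *Txn1* (5192) and *Tfrc* (9007). Among all 10 YEJH-derived lines it stood apart for low *Slc7a11* (127), *Txn1* (5192) and *Prdx1* (7581) and for high *Prdx3* (1709.8), and YEJH-M2 for high *Gstm1* (55.5). Of the 5 YEJH fat-pad lines, YEJH-FP2 stood apart for high *Gstm5* (113.5).

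The lung-against-fat-pad difference was more positive in YEJG than in YEJH by the interaction term for *Sod3* (1.91 on the log2 scale), *Fth1* (1.29), *Aifm2* (0.79), *Hmox1* (0.59), *Prdx5* (0.57), *Prdx4* (0.39) and *Gpx1* (0.34), and more negative for *Tkt* (-0.73), *Txn1* (-0.61), *Txnrd1* (-0.28) and *Prdx6* (-0.24). YEJG-FP enters each of these as the only YEJG fat-pad line.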

How the results depend on the processing

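No result reversed its direction. *Nqo1* was called higher in derived lines under 31 of 32 alternatives, at log2 fold changes of 6.70 to 7.97; *Prdx2* lost its call under 17, *Prdx3* under 7, *Srxn1* under 6 and *Tfrc* under 5. *Fth1*, *Tkt* and *Txn1* kept theirs in the interaction under all 25, while *Prdx6* lost it under 12, *Gpx1* under 8 and *Aifm2* under 6. The causes were not tested. The interaction could not be fitted without YEJG-FP. Few reads limit *Nqo1* in the parental lines, *Mgst1* in parental YEJG, and *Gsta1*, *Gstm1*, *Gstm2*, *Gpx2* and *Gpx3*.

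For lung against fat pad, all genes called numbered 21 with DESeq2, 1 in set A alone, 77 in limma on the separate libraries, 74 on adding the library set, 2 with origin as covariate, 6 in YEJH lines and 488 with set and origin together; leaving out a line or repeat gave 0 to 1 (1 without YEJG-M1), and 0 of the 44. Of the 44, limma called 1 (*Gsta4*), and with set and origin 7. The models with the library set, and the one without YEJH-M3 repeat 2, were chosen after seeing the data.

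Between origins, 12 to 24 of the 44 (all genes 4891 to 7202) were called when a line or repeat was left out, with 12 without YEJG-M1. Fat-pad lines alone hold 1 YEJG line, and effect sizes from that fit are given above. Lung lines alone gave 21 calls, with all 20 of the main fit among them. Over all 29 alternatives, these subsets included, 4891 to 7202 of all genes were called. Without YEJH-M3 repeat 2, 23 were called between origins, 6 between derived and parental lines and 11 in the interaction.

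For derived against parental lines, the 44 gave 8 calls with DESeq2, 2 without a filter, 2 in set B, 14 in limma, 15 with the library set, 2 in YEJH lines, 0 in YEJG lines (4 at an unadjusted p under 0.05), 12 for fat-pad and 2 for lung lines against parental lines. Leaving out gave 1 (without YEJG) to 12 (without YEJG-FP), with 3 without repeat 1 and 8 without repeat 3. All genes gave 2027, 797, 669, 2481, 2480, 550, 0 (1607 unadjusted), 1939 and 156 in that order, and 143 to 2281 on leaving out. In the interaction, limma called 18 of the 44 and 3436 genes, 21 and 3518 with the library set, and leaving out 7 (without YEJG-M1) to 13, and 1631 to 2710 genes. Between library sets, 3032 genes were called without a filter.

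With the technical repeat number as a replicate block, limma called 1 of the 44 (*Gsta4*) and 68 genes for site, 25 and 6455 for origin, 14 and 2546 for derived against parental lines, 17 and 3447 for the interaction, and edgeR 7 and 2131 between sets. With the shared line number as a replicate block, 0 of the 44 and 0 genes were called for site. Same-numbered fat-pad and lung lines did not deviate together (r from -0.11 to 0.07). Whether same-numbered lines came from the same mouse was not tested. Libraries of different lines with the same repeat number had a mean r of 0.00 over all genes. For 14 of the 44 genes, one repeat number was the lowest or the highest in at least 10 of the 15 lines (*Slc7a11* was lowest in repeat 1 in 12). That count was not made over all genes, so whether it is particular to the 44 was not tested. Each line has all 3 repeats.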
